A study of Mus musculus with 4 samples.

Results

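Checkpoint and costimulatory receptors were followed in the lymphocytes of mouse lung tumors as a set of 10 genes, Pdcd1, Ctla4, Havcr2, Lag3, Tigit, Icos, Cd28, Tnfrsf4, Tnfrsf9 and Tnfrsf18. They were chosen by name, and all 10 were matched by symbol among the 18596 genes that the tables of all 4 libraries listed. The study performed scRNA-seq on tumors of the mouse lung carcinoma line LLC. They were grown under the skin of female C57BL/6N mice of 6 to 8 weeks, a strain the sample labels write as C57/BL6N. Mice of the radiotherapy (RT) group received 24 Gy, as 3 fractions of 8 Gy on days 7 to 9, once tumors had reached about 100 mm3, and mice of the radiation naive (NT) group were mock treated. Tumors were taken 72 h later. Each RT library (RT1 to RT3) came from a single tumor, whereas the only NT library pooled 3 tumors, so the spread between untreated tumors could not be measured and no test between NT and RT was possible. Depth is given as unique molecular identifiers (UMIs), each standing for 1 captured messenger RNA molecule. In the order NT, RT1, RT2, RT3, which all lists of 4 values below follow, the tables held 69667759, 78585759, 108699844 and 85660188 UMIs on 10141, 15346, 14994 and 15324 barcodes.

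T cells need a signal from a costimulatory receptor beside the antigen receptor to respond fully, and inhibitory receptors, called checkpoints, damp that response. Cd28 is the main costimulatory receptor of resting T cells, Icos is its inducible relative, and Tnfrsf4 (OX40), Tnfrsf9 (CD137) and Tnfrsf18 (GITR) are members of the tumor necrosis factor receptor family that appear or rise on activated cells. Pdcd1 (PD-1), Ctla4, Havcr2 (TIM-3), Lag3 and Tigit are inhibitory, and several of them together mark T cells under lasting stimulation, while regulatory T cells (Treg) carry high levels of Ctla4 and of the tumor necrosis factor receptor family members.

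Cells were assigned to populations by their own transcripts, with no receptor gene in the rule. CD8 T cells had a UMI of Cd8a or Cd8b1 and of a Cd3 gene and none of Foxp3. Treg had a UMI of Foxp3 and of a Cd3 gene and none of Cd8a or Cd8b1. NK cells had a UMI of Ncr1 or Klrb1c and none of Cd3 genes or Foxp3. Of 55058 barcodes kept, the CD8 T rule took 124, 66, 209 and 84 cells and the NK rule took 76, 169, 199 and 112. Levels are given as CPM, the UMIs of a gene scaled to 1000000 UMIs of the same cells. The Treg rule found only 13, 3, 13 and 7 cells, so every Treg value rests on few cells, and the 3 cells of RT1 carried 17181 CPM of Lyz2, a macrophage transcript, against 16.7 CPM in NT.

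The labels of the populations were checked against marker genes. All 7 T cell markers, led by Trbc2, were present in CD8 T cells and all 6 NK markers, led by Gzma, in NK cells. The 4 Treg markers Foxp3, Il2ra, Ikzf2 and Cd4 were all present in the summed Treg barcodes. The rules themselves asked for a Cd3 gene, for Ncr1 or Klrb1c and for Foxp3, so the presence of these markers does not check the labels. Outside the rules stood Trbc2, Trac, Cd2 and Lck for T cells. For NK cells these were Klrk1, Klra8, Eomes and Gzma, and for Treg they were Il2ra, Ikzf2 and Cd4. The RT1 barcodes of the Treg rule went against that label, with the T cell list at 1145 CPM against 4461, 4169 and 5016 CPM in NT, RT2 and RT3, Trbc2 at 0, and the macrophage or monocyte list at 20846 CPM against 1451 CPM for the Treg list. They are called Treg by the rule alone, and the receptor results and several list counts of Treg are also given without RT1. Besides the Cd3 genes, which the rule set to 0, the other 4 of the 7 T cell markers had UMIs in NK cells, and the list summed to 742, 551, 461 and 559 CPM against 4773, 4724, 4944 and 3914 CPM in CD8 T cells. Cd8a and Cd8b1, which the NK rule did not use, had 0 UMIs in all 556 NK cells. Transcripts of other cells were also counted under these barcodes. In CD8 T cells the 6 macrophage or monocyte markers, led by Lyz2, summed to 237, 770.0, 1636 and 369 CPM, and the 3 fibroblast markers, led by Col1a1, summed to 1845, 694, 84.6 and 11.1 CPM. The 4 neutrophil markers summed to 0, 604, 58.0 and 11.1 CPM in CD8 T cells and to 3.91, 9.66, 80.9 and 11.1 CPM in NK cells. They were thus above NT in every RT library. Rhox5, the tumor marker, stood at 285, 187, 246 and 450.4 CPM in CD8 T cells and at 195, 328, 362 and 229 CPM in NK cells, and the macrophage or monocyte list summed to 1601, 1045, 1964 and 1508 CPM in NK cells. The part of these transcripts in the results below was not tested beyond the counts without such barcodes that are given with the alternatives. The RT2 table listed 18605 genes against 32285 in the other tables and held the most UMIs per CD8 T cell (median 2592 against 1839.5, 1619.5 and 1983 in NT, RT1 and RT3). Between 547 and 719 barcodes of each library also occurred in another library.

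Promoter sequences were available for 7 of the 10 receptors. The 250 bases before the start site are shown for 4 of them that behaved differently between the populations below (Pdcd1 and Tnfrsf4, close to absent from NK cells; Ctla4, highest in Treg; Tnfrsf9, at similar levels in all). They were taken from RefSeq on GRCm38.p6 and are written 5′ to 3′ on the strand of the gene. Capitals mark GGAAA, the core bound by NFAT factors of the antigen receptor pathway, on either strand (TTTCC on the other strand). The windows are chr1:94052554-94052803 on the minus strand for Pdcd1, chr1:60908775-60909024 on the plus strand for Ctla4, chr4:156013445-156013694 on the plus strand for Tnfrsf4 and chr4:150919905-150920154 on the plus strand for Tnfrsf9, the more upstream of its starts.
Pdcd1: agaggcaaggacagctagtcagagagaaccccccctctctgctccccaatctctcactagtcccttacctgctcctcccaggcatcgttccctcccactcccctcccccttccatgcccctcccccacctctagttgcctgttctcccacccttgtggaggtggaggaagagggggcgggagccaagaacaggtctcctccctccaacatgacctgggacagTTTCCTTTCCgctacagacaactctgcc
Ctla4: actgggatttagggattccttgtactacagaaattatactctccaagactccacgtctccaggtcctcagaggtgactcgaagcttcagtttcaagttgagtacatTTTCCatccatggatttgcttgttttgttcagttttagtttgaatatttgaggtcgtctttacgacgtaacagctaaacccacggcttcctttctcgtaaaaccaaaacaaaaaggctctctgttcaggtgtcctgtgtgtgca
Tnfrsf4: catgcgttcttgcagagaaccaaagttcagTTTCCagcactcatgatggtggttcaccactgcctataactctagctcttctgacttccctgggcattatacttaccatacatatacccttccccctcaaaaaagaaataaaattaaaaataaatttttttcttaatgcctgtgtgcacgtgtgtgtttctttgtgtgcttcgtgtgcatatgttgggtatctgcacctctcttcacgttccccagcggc
Tnfrsf9: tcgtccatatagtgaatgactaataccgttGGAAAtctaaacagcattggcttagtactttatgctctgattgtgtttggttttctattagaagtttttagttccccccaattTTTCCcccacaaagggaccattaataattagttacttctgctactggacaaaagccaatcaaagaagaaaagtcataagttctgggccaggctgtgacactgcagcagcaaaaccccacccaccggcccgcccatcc

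Pdcd1 held 2 matches, which lie next to each other near the end of its window, Tnfrsf9 held 2, and Ctla4 and Tnfrsf4 held 1 each. GGAAA was present in 7 of the 8 windows of receptor starts and in 55.6% of all 32851 mouse promoter windows of this length, and the AP-1 motif TGANTCA was present in 2 of the 8 against 6.75% of all. An NF-kappaB core was present in 1 of the 8 against 45.8%, and the TATA box core TATAAA in 0 against 12.4%. All motifs were searched on both strands, and matches of different motifs may overlap. A match of these letters is a description of the sequence and not a measured site. In the RefSeq order of genes, Cd28, Ctla4 and Icos follow each other on chromosome 1, and Tnfrsf4 and Tnfrsf18 are neighbors on chromosome 4.

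The first question was in which lymphocytes each receptor was transcribed. Of CD8 T, Treg and NK cells, Treg carried the most Ctla4, Icos and Tnfrsf4 by mean level. For Icos and Tnfrsf4 their range overlapped that of CD4 T cells without Foxp3, as given below. NK cells carried less of 6 receptors than CD8 T cells, with almost no Pdcd1 or Tnfrsf4, and Tnfrsf9 was high in all populations without a detected difference. The NK results for Ctla4, Icos, Cd28 and Tnfrsf9 depended on the Cd3 genes in the population rules, as given below. The 12 sums of UMIs, 1 per population and library, were compared with the edgeR quasi-likelihood test with library as a block. The SE of a log2 difference was computed as its absolute value divided by the square root of the F statistic of that test. It is not a counting interval. Levels of different genes are not compared with each other. The contrasts share sums, the population rules and the receptors are measured in the same cells, and fewer expressing cells and less RNA per cell cannot be told apart in a sum.

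Pdcd1, the receptor blocked by anti-PD-1 antibodies, reached 331, 437, 549.5 and 292 CPM in CD8 T cells. In NK cells it reached 3.91, 11.6, 7.03 and 0 CPM, from 1, 6, 8 and 0 UMIs, where 0 UMIs in RT3 allow up to 6.68 CPM (3 UMIs; all such limits and intervals cover counting error only). All NK sums lay far under all CD8 T sums. The log2 difference of NK over CD8 T was -6.16 ± 0.42 (SE, edgeR adjusted p = 3.51e-10, lower in 4 of 4 libraries), and over all UMIs CD8 T cells had 71.0 times the level of NK cells (95% counting interval 42.7 to 127). Pdcd1 in Treg stood at 66.8, 0, 526 and 79.6 CPM, under the CD8 T level of the same library in 4 of 4, but the ranges overlapped through RT2 and the difference of -1.28 ± 0.41 did not pass (edgeR adjusted p = 0.0591). Without RT2 it was -2.93 (edgeR adjusted p = 0.00376). Treg exceeded NK cells by 4.88 ± 0.63 (edgeR adjusted p = 1.18e-05, higher in 3 of 4 libraries), a call lost without RT2 (log2 difference 2.94, edgeR adjusted p = 0.0883), which held 27 of the 32 Pdcd1 UMIs of Treg.

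Ctla4, which competes with Cd28 for its ligands, was highest in Treg, at 1119, 611, 1481 and 1354 CPM. CD8 T cells held 258, 229, 208 and 185 CPM and NK cells 105, 59.9, 72.1 and 80.2 CPM. The ranges of the populations did not overlap. Treg exceeded CD8 T cells by 2.10 ± 0.25 on the log2 scale (edgeR adjusted p = 7.55e-06) and NK cells by 3.53 ± 0.26 (edgeR adjusted p = 3.29e-09), and NK cells were lower than CD8 T cells by -1.44 ± 0.23 (edgeR adjusted p = 0.000183). Without Cd3 in the population rules, the Ctla4 difference of NK over CD8 T cells was -0.48 and did not pass (edgeR adjusted p = 0.433). Havcr2, an inhibitory receptor that macrophages also carry, stood at 127, 229, 201 and 122 CPM in CD8 T cells and at 145, 29.0, 51.9 and 123 CPM in NK cells. These ranges overlapped, and the NK difference of -1.08 ± 0.35 did not pass (edgeR adjusted p = 0.0804), although it did without NT (-1.51, edgeR adjusted p = 0.0011) and without RT3 (-1.48, edgeR adjusted p = 0.0434). In Treg, Havcr2 came to 66.8, 76.4, 156 and 79.6 CPM from 14 UMIs in all.

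Lag3 and Tigit were too sparse to be tested. Lag3, which binds MHC class II, had 2, 4, 25 and 1 UMIs in CD8 T cells (6.07, 27.7, 29.0 and 3.69 CPM), 1 UMI in Treg and 3 in NK cells. Tigit, a receptor for the ligand Pvr, had 12 UMIs in CD8 T cells, 4 in Treg and 8 in NK cells. Tumor cells, the largest population with 30106 cells, had 104 Tigit UMIs, a mean level of 0.384 CPM.

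**Figure D1:**
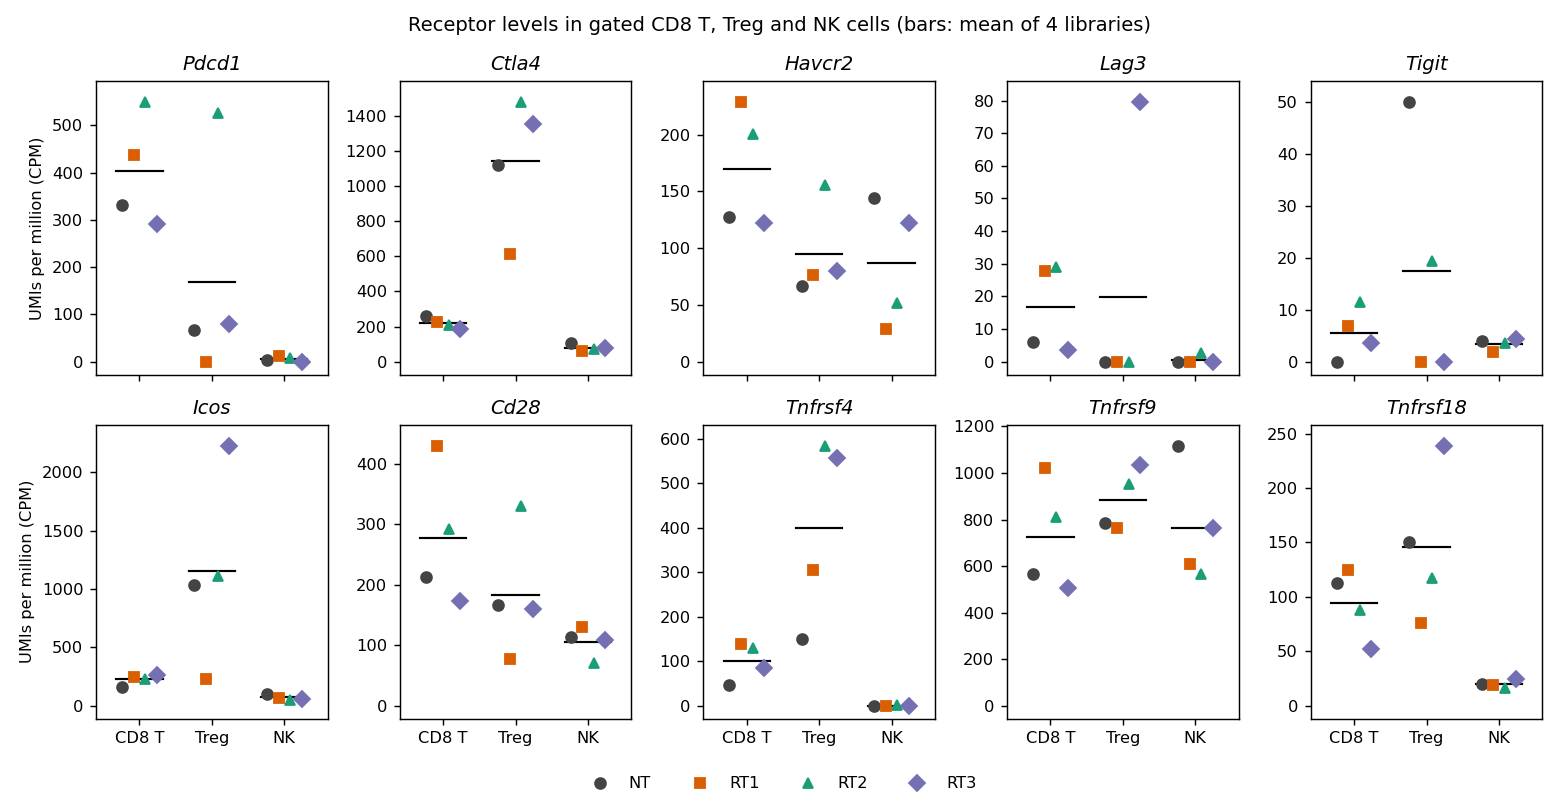
Level of each receptor (CPM, linear axis) in CD8 T, Treg and NK cells, 1 point per library (NT circles, RT1 squares, RT2 triangles, RT3 diamonds) with the mean of the 4 libraries as a bar. Ctla4 and Tnfrsf4 of Treg lie above all points of the other populations, while Pdcd1 and Tnfrsf4 of NK cells lie near 0.

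Among the costimulatory receptors of the Cd28 family, Icos was highest in Treg, at 1036, 229, 1110.5 and 2229 CPM, the RT1 value resting on 3 UMIs. CD8 T cells held 164, 249.7, 229.6 and 262 CPM, and NK cells 102, 67.6, 50.1 and 60.1 CPM, with no overlap between CD8 T and NK cells. Treg exceeded CD8 T cells by 1.99 ± 0.31 (edgeR adjusted p = 0.000281, higher in 3 of 4 libraries, all but RT1) and NK cells by 3.69 ± 0.34 (edgeR adjusted p = 9.91e-08), and NK cells were lower than CD8 T cells by -1.71 ± 0.30 (edgeR adjusted p = 0.000486). Cd28 stood at 212, 430.1, 292 and 174 CPM in CD8 T cells, at 167, 76.4, 331 and 159 CPM in Treg and at 113, 129, 70.3 and 109 CPM in NK cells. NK cells were below CD8 T cells in every library, by -1.36 ± 0.26 (edgeR adjusted p = 0.00115), while Treg and CD8 T cells overlapped and differed by -0.55 ± 0.38 (edgeR adjusted p = 0.485). Without Cd3 in the population rules, the Cd28 difference of NK over CD8 T cells was -0.32 (edgeR adjusted p = 0.647). The Icos call of NK against CD8 T cells was lost there as well.

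Tnfrsf4, the OX40 receptor, was the gene that set Treg and NK cells furthest apart among the 10. Its CPM in Treg were 150.4, 305, 584 and 557, in CD8 T cells 45.5, 139, 129.9 and 84.9, and in NK cells 0, 0, 0.879 and 0, with 1 UMI among 2359885. Every Treg sum was above every CD8 T sum. Treg exceeded CD8 T cells by 1.72 ± 0.30 (edgeR adjusted p = 0.000722), a call lost without RT2, which held 30 of the 50 Treg UMIs (1.43, edgeR adjusted p = 0.104). Over all UMIs the level was 250 times that of NK cells in CD8 T cells (95% counting interval 44.2 to 9917) and 862 times in Treg (148 to 34731), and both differences passed the test (edgeR adjusted p = 3.51e-10 and 2.86e-10).

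Tnfrsf9, a costimulatory receptor of activated T and NK cells, showed the opposite picture. It reached 567, 1019.8, 809 and 506 CPM in CD8 T cells, 785, 764, 955 and 1035 CPM in Treg and 1117, 609, 564 and 764 CPM in NK cells, with all ranges overlapping. The differences were 0.12 ± 0.25 for NK over CD8 T cells (edgeR adjusted p = 0.906), -0.05 ± 0.29 for Treg over CD8 T cells (edgeR adjusted p = 0.967) and -0.17 ± 0.29 for Treg over NK cells (edgeR adjusted p = 0.797). Without Cd3 in the population rules, Tnfrsf9 was called higher in NK than in CD8 T cells, as given below. Tnfrsf18, the GITR receptor, stood at 112, 125, 88.1 and 51.7 CPM in CD8 T cells, at 150.4, 76.4, 117 and 239 CPM in Treg and at 19.5, 19.3, 15.8 and 24.5 CPM in NK cells. NK cells lay below both other populations in every library, by -2.19 ± 0.29 against CD8 T cells (edgeR adjusted p = 9.75e-06) and with Treg higher by 2.45 ± 0.49 (edgeR adjusted p = 0.00166). The difference of 0.26 ± 0.40 between Treg and CD8 T cells did not pass (edgeR adjusted p = 0.803).

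Counted together, 8 of the 10 receptors were abundant enough to be tested. Treg were higher than CD8 T cells for 3 (Ctla4, Icos and Tnfrsf4) and lower for 0, where 1.66% of the 4574 genes tested were called higher and 5.86% lower. Without adjustment, edgeR counted 1 lower (Pdcd1), and DESeq2 called 0 lower. NK cells were lower than CD8 T cells for 6 and higher for 0, where 3.48% of genes were called lower and 2.3% higher. DESeq2 also called 0 higher, and edgeR counted 0 higher without adjustment. Treg were higher than NK cells for 5 and lower for 0, where 3.5% of genes were called higher and 8.35% lower. Again DESeq2 called 0 lower and edgeR counted 0 lower without adjustment. When the Cd3 genes were dropped from the population rules, the calls of NK against CD8 T cells for Ctla4 (-0.48, edgeR adjusted p = 0.433), Icos (-0.71, edgeR adjusted p = 0.274) and Cd28 (-0.32, edgeR adjusted p = 0.647) were lost, and those for Pdcd1, Tnfrsf4 and Tnfrsf18 passed. Without RT1, Treg were again higher than CD8 T cells for 3 receptors, with Ctla4 at 2.28 (edgeR adjusted p = 2.27e-08), Icos at 2.25 (edgeR adjusted p = 1.11e-07) and Tnfrsf4 at 1.88 (edgeR adjusted p = 0.000118), and higher than NK cells for 5. With the gate without Cd3 Tnfrsf9 was called higher in NK than in CD8 T cells (1.12, edgeR adjusted p = 0.0152).

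**Figure D2:**
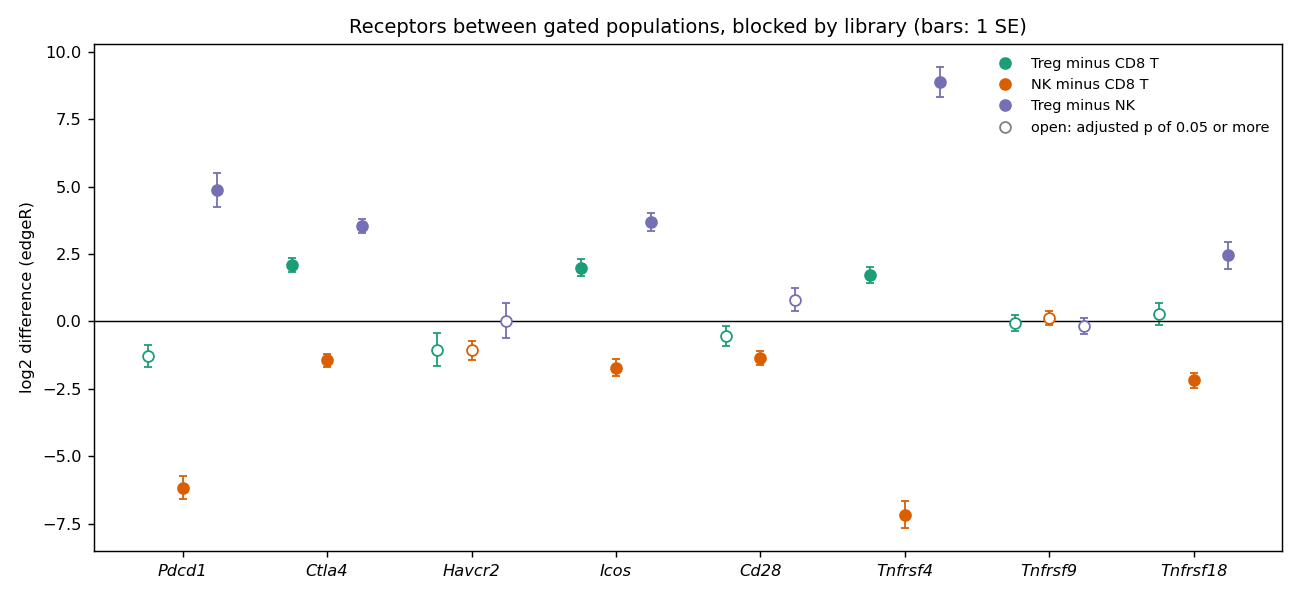
Log2 difference between gated populations for the 8 tested receptors (points, with 1 SE computed from the edgeR F statistic as bars). Filled points have an edgeR adjusted p under 0.05. Ctla4, Icos and Tnfrsf4 are filled in all contrasts, whereas the points of Tnfrsf9 lie between -0.17 and 0.12 and are all open.

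Outside these populations, the mean level in CPM was highest in CD4 T cells without Foxp3 for every receptor but Tigit, which had 0 UMIs there. By UMIs, tumor cells held 5540 of Tnfrsf9 and macrophages and monocytes 1579, against 93 in those CD4 T cells. For Havcr2, macrophages and monocytes held 940 UMIs against 13. Further barcodes were taken by marker UMIs in the same way, and their markers were checked. Barcodes with 2 UMIs of Retnlg or Csf3r, genes of neutrophils, held 28153, 24055, 26913 and 15473 CPM of the macrophage or monocyte list against 4039, 7010, 4131 and 11889 CPM of the neutrophil list, and barcodes with Ccr7 and Fscn1, genes of mature dendritic cells, held Rhox5 at 1014, 1331, 1200 and 1122 CPM against 1098, 1351, 1215 and 1233 CPM in tumor cells. Both sets therefore go against those cell types and are called by their marker genes. Of the Ccr7 and Fscn1 barcodes, 82.5%, 80.2%, 79.3% and 78.8% were doublet-like, that is, held at least 2 UMIs of Rhox5 or of macrophage genes. Macrophages and monocytes summed to 18053, 25241, 20208 and 21503 CPM of their own list. CD4 T cells without Foxp3 (24, 14, 37 and 8 cells) held 568, 1002, 640 and 700 CPM Icos, 529.9, 580.0, 289 and 219 CPM Ctla4, 322, 738, 175 and 43.8 CPM Pdcd1, and 549, 633, 429.5 and 131 CPM Tnfrsf9. They also held 75.7, 158, 245 and 219 CPM Tnfrsf4, from 4, 3, 28 and 5 UMIs, above NT in every RT library as in Treg. Tnfrsf18 stood at 75.7, 316, 131 and 0 CPM. The same barcodes held 0, 264, 798 and 8888 CPM of the macrophage or monocyte list against 4201, 5958, 3778 and 2890 CPM of the T cell list. The 8 cells of RT3 thus went against their label, and the part of macrophage RNA in their values was not tested. In the order of mean levels over the 4 libraries, Ctla4 ran from Treg over CD4 T cells without Foxp3 and CD8 T cells to NK cells, and the ranges of only CD4 and CD8 T cells overlapped among these neighbors. Without RT3 these did not overlap either. For Pdcd1 the order was CD8 T cells, CD4 T cells without Foxp3, Treg and NK cells, and each of these overlapped the next. Without RT1, Treg (mean 224 CPM) came before CD4 T cells without Foxp3 (180.3 CPM), and neither overlapped NK cells. For Icos it was Treg, CD4 T cells without Foxp3, CD8 T cells and NK cells, with overlap between only the first pair, which did not overlap without RT1. Tnfrsf4 ran from Treg (mean 399 CPM) over CD4 T cells without Foxp3 (175 CPM) to CD8 T cells (99.8 CPM), each overlapping the next. For Tnfrsf18 the means were 146, 131 and 94.2 CPM in the same order, again with overlap.

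Havcr2 and Tnfrsf9 were the receptors with a mean above 10 CPM outside lymphocytes. Havcr2 stood at 19.2 ± 3.56 CPM in macrophages and monocytes and 7.83 ± 6.39 CPM in the Retnlg or Csf3r barcodes, where the part of macrophage RNA was not tested. Tnfrsf9 stood at 41.3 ± 11.9 CPM in the Ccr7 and Fscn1 barcodes, 30.1 ± 6.90 in macrophages and monocytes, 21.0 ± 4.22 in tumor cells and 16.3 ± 11 in the Retnlg or Csf3r barcodes, each range overlapping the next. Other receptors had UMIs in tumor cells at lower levels, such as Tnfrsf4 with 11, 21, 40 and 33 UMIs. When every cell was thinned to 1500 UMIs, 3.01%, 3.15%, 2.11% and 3.34% of tumor cells had a Tnfrsf9 UMI against 47.5%, 68.4%, 63.4% and 48.0% of CD8 T cells, which sets the share that tumor cells gave at the same depth. Unthinned, 12.5 ± 0.775% of tumor cells had one.

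**Figure D3:**
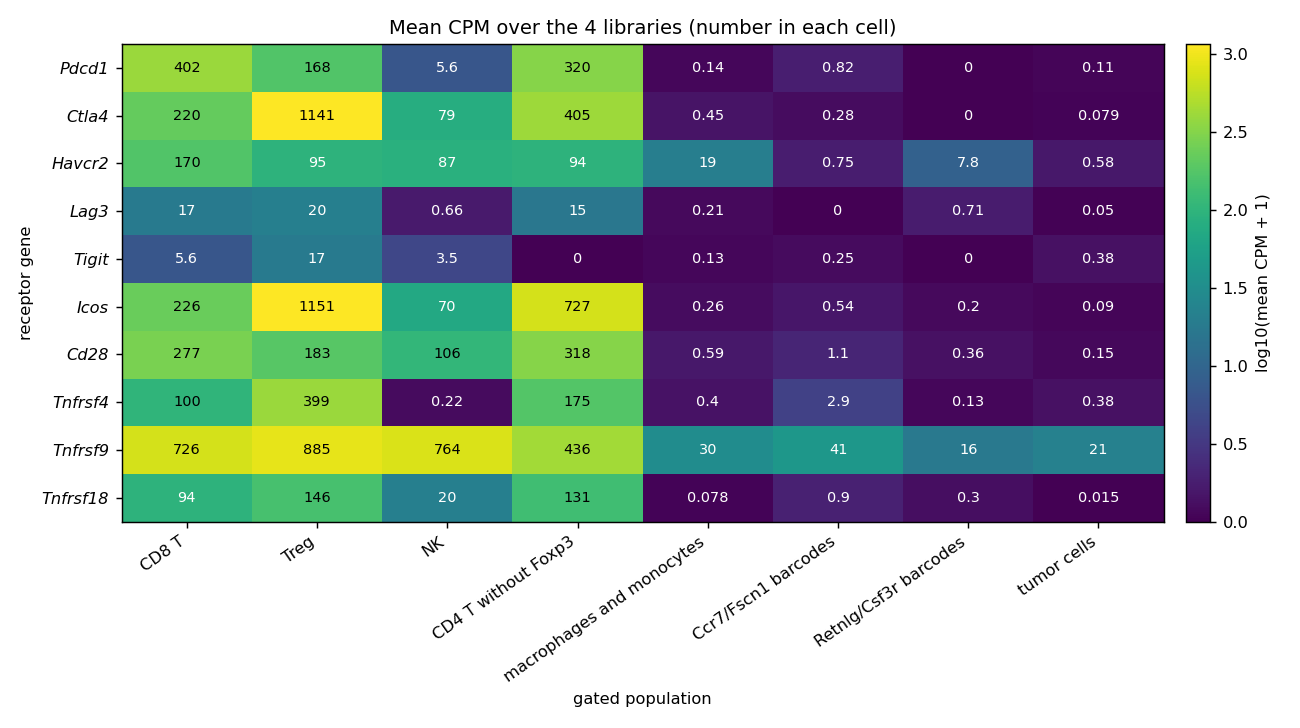
Mean level over the 4 libraries (number in each field, CPM; color, log10 of mean CPM + 1) of the 10 receptors in 8 gated populations. The highest mean level of each receptor lies in a lymphocyte column, and only Havcr2 and Tnfrsf9 exceed 10 CPM outside the 4 lymphocyte columns.

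The next question was whether receptor levels differed after radiation. In CD8 T cells, 8 receptors had at least 40 UMIs over the libraries. Of these, 2 were above NT in all 3 RT libraries (Icos and Tnfrsf4), 1 was below NT in all 3 (Ctla4), and 5 lay on both sides. For comparison, 22.9% of the 5278 genes with as many UMIs were above NT in all RT libraries and 29.1% were below. A gene was called by size when its log2 ratio over NT reached 1 in the same direction in every RT library. By that rule 0 of the 8 were called, where 2.77% of genes were called higher and 0.777% lower. The median of the receptors' mean log2 ratios was 0.40, against -0.08 over all 5278 genes.

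Tnfrsf4 came nearest to a call in CD8 T cells. It rested on 15 UMIs in NT and on 20, 112 and 23 in RT1, RT2 and RT3, or 45.5 CPM against 118 ± 28.9 (SD, n = 3), with log2 ratios of 1.61, 1.51 and 0.90. The counting interval of the RT3 ratio ran from -0.10 to 1.94 and so held 0. Icos stood at 164 CPM in NT (95% interval 123 to 214) against 247 ± 16.4 in RT, with log2 ratios of 0.61, 0.49 and 0.68, which made it the receptor with the least spread between RT libraries (SD 0.10). The counting interval of the RT1 ratio ran from -0.04 to 1.24 and so held 0. Ctla4 stood at 258 CPM in NT against 207 ± 22.2 in RT, with log2 ratios of -0.17, -0.31 and -0.48, all of whose counting intervals held 0.

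The remaining receptors of CD8 T cells divided by library. Pdcd1, Havcr2, Cd28 and Tnfrsf9 were above NT in RT1 and RT2 and below it in RT3. The log2 ratios of Cd28 were 1.02, 0.46 and -0.29, and those of Tnfrsf9 were 0.85, 0.51 and -0.17. Tnfrsf18 had 37 UMIs in NT and 14 in RT3, where its log2 ratio was -1.12 (interval -2.12 to -0.20), against 0.15 in RT1 and -0.35 in RT2. Left without RT3, 6 receptors were above NT in both other RT libraries, and without RT1 2 were below NT (Ctla4 and Tnfrsf18). When cells were averaged with equal weight instead of summed, 5 were above NT and 0 below. The shares of all genes of 22.9% and 29.1% hold for the main values with all RT libraries. None are given for these other settings, so these counts are not read against them.

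In NK cells, 6 receptors had at least 40 UMIs. Of these, 4 were below NT in all 3 RT libraries (Ctla4, Havcr2, Icos and Tnfrsf9), 0 were above and 2 (Cd28 and Tnfrsf18) lay on both sides, where 31.5% of 6397 genes were below NT in all RT libraries and 29.6% were above. By size 0 were called, where 1.06% of genes were called lower and 4.52% higher. The median of the mean log2 ratios was -0.69 for the receptors and -0.03 over all genes. Icos stood at 102 CPM in NT against 59.3 ± 8.79 in RT, with log2 ratios of -0.59, -1.02 and -0.76, of which the counting intervals of RT1 (-1.36 to 0.20) and RT3 (-1.59 to 0.08) held 0. Havcr2 differed between the RT libraries, at 145, 29.0, 51.9 and 123 CPM.

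Few cells set the NT level of NK cells. Of the 286 Tnfrsf9 UMIs of NT, 64.0% were in the 5 cells with the most, against 20.3%, 19.6% and 33.8% in RT1, RT2 and RT3, and of its 37 Havcr2 UMIs 91.9% were in 5 cells. The share of NK cells with a Tnfrsf9 UMI ran the other way from the sum. At 1500 UMIs per cell it was 31.1% in NT (14 of 45 cells) and 56.2%, 51.9% and 50.0% in the RT libraries, and unthinned it was 47.4% against 52.7%, 65.3% and 61.6%. No order of NT and RT is therefore read for Tnfrsf9 in NK cells. With each cell weighted equally its mean log2 ratio was -0.19 instead of -0.80, and 2 receptors instead of 4 were below NT.

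**Figure D4:**
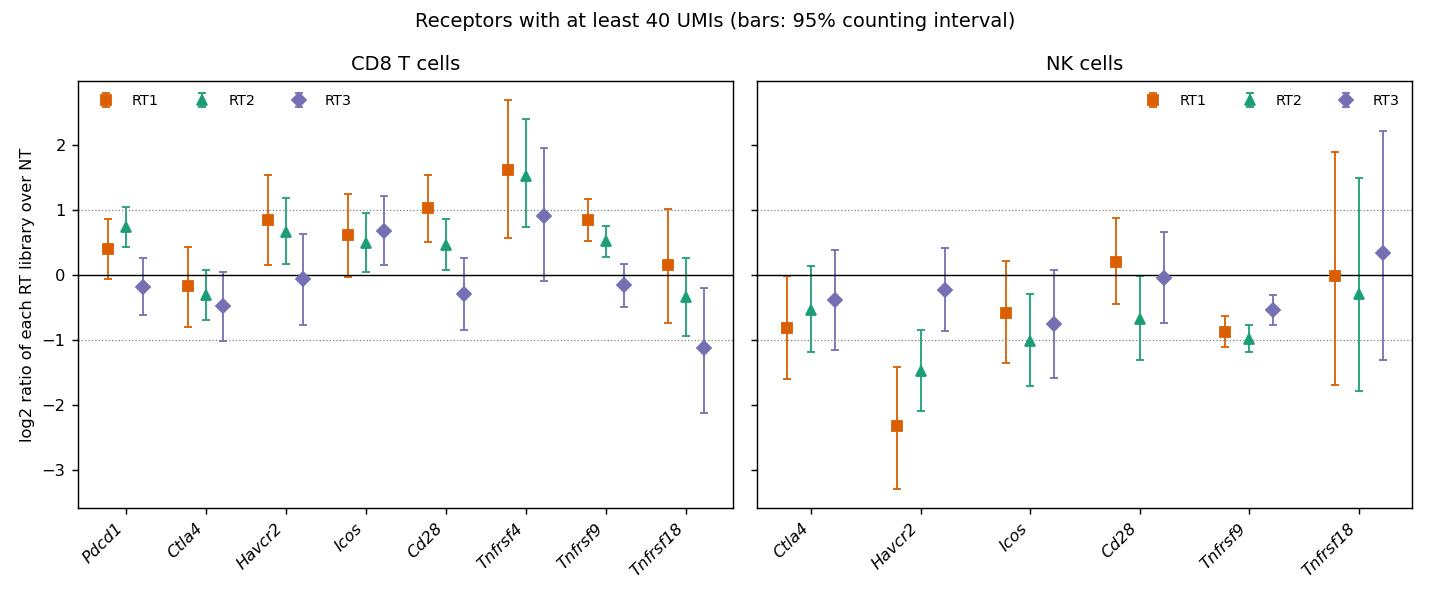
Log2 ratio of each RT library over NT for the receptors with at least 40 UMIs in CD8 T cells and in NK cells, with 95% counting intervals; dotted lines mark a log2 ratio of 1 in either direction. The points of Icos lie above 0 in CD8 T cells and below 0 in NK cells in all 3 RT libraries, with intervals that reach past 0 in RT1 of CD8 T cells and in RT1 and RT3 of NK cells.

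In Treg only 4 receptors had at least 40 UMIs. Tnfrsf4 was above NT in all RT libraries and was called by size, where 15.4% of 589 genes were above NT and 3.74% were called higher. It rested on 9, 4, 30 and 7 UMIs, or 150.4 CPM in NT against 482 ± 154 in RT, with log2 ratios of 1.02 (interval -1.13 to 2.86), 1.96 and 1.89. Its mean log2 ratio of 1.62 fell to 0.36 without Cd3 in the gate and to 0.77 as a mean over cells, and rose to 2.42 without doublet-like barcodes. Ctla4, Icos and Tnfrsf9 lay on both sides of NT. Without RT1, whose 3 cells included a barcode with macrophage UMIs, all 4 were above NT, where 28.7% of all 589 genes were above and 38.7% below. The mean log2 ratio of Tnfrsf4 was then 1.92.

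The share of cells in which a receptor was detected was compared at 1500 UMIs per cell, which left out 44, 28, 48 and 34 of the CD8 T cells. Pdcd1 was detected in 37.5%, 42.1%, 54.7% and 34.0% of the remaining 80, 38, 161 and 50 cells, Tnfrsf4 in 6.25%, 21.1%, 24.2% and 8.00%, and Icos in 20%, 31.6%, 31.7% and 26.0%. At this depth RT1 and RT2 were the higher libraries for all 3 genes, but the place of RT3 changed with the depth. At 1000 UMIs per cell Tnfrsf4 was detected in 5.66%, 17.6%, 17.3% and 14.5% and Icos in 16%, 19.6%, 23.8% and 33.3%. Unthinned, Tnfrsf4 was detected in 8.06%, 18.2%, 34.4% and 22.6% and Icos in 29.8%, 30.3%, 48.3% and 50.0%. NT was lowest for Tnfrsf4 and Icos at these 3 depths. Pdcd1 was detected in 22.6%, 43.1%, 44.3% and 29.0% at 1000 UMIs per cell and in 42.7%, 50.0%, 66.0% and 56.0% unthinned. NT was thus lowest for Pdcd1 at these other depths but not at 1500 UMIs per cell. Without doublet-like barcodes, Tnfrsf4 was detected at 1500 UMIs in 7.25%, 23.5%, 27.9% and 5.41%, so that RT3 lay below NT. Tumor cells at the same depth had these genes in 0.0174 ± 0.00766%, 0.0579 ± 0.0270% and 0.0112 ± 0.0145% of cells (SD, n = 4). At least 2 of the 5 inhibitory receptors were detected in 25.0% of CD8 T cells of NT (exact 95% interval 16 to 35.9), 28.9% of RT1 (15.4 to 45.9), 39.1% of RT2 (31.5 to 47.1) and 14.0% of RT3 (5.82 to 26.7). RT2 and RT3 differed by more than NT differed from either. In NK cells only 2, 2, 1 and 1 cells held as many at this depth and 0, 1, 0 and 0 at 1000 UMIs per cell. Unthinned, the NK shares were 5.26%, 2.37%, 8.04% and 8.04%, so no order of NT and RT is read from them.

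Within single CD8 T cells, Havcr2 was detected in 30.0%, 37.5%, 37.5% and 17.6% of cells with a Pdcd1 UMI at 1500 UMIs per cell. Among cells without one it was detected in 18.0%, 31.8%, 12.3% and 18.2%. The gap was wide in RT2 (33 of 88 cells with Pdcd1 and 9 of 73 without) and absent in RT3 (3 of 17 and 6 of 33) at this depth, but it changed with the depth. At 1000 UMIs per cell Havcr2 was detected in 16.7%, 27.3%, 25.6% and 15% of cells with Pdcd1, from 4, 6, 21 and 3 cells with both. Without Pdcd1 the shares were 12.2%, 17.2%, 13.6% and 10.2%, so Havcr2 was more often detected with Pdcd1 in 4 of 4 libraries. Unthinned, Havcr2 was detected in 28.3%, 36.4%, 48.6% and 31.9% of cells with Pdcd1 and in 18.3%, 27.3%, 21.1% and 13.5% of those without, higher with Pdcd1 in 4 of 4 libraries. At 1500 UMIs per cell Tnfrsf9 was detected in 73.3%, 56.2%, 72.7% and 58.8% of cells with Pdcd1 and in 32%, 77.3%, 52.1% and 42.4% of those without, higher with Pdcd1 in all libraries but RT1. Unthinned it was detected in 71.7%, 75.8%, 87.0% and 72.3% with Pdcd1 and in 39.4%, 66.7%, 59.2% and 54.1% without. At 1000 UMIs per cell the shares were 58.3%, 72.7%, 52.4% and 45% against 35.4%, 62.1%, 43.7% and 40.8%, so that at both of these depths they were higher with Pdcd1 in 4 of 4 libraries. In the unthinned shares of Havcr2 and Tnfrsf9 depth was not equal, so a deeper cell could more easily show both genes of a pair. No link between the genes is therefore read from the unthinned shares.

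CD8 T cells were then divided by whether they had a UMI of Gzmb, the granzyme that marks killer cells, which is a range of 1 gene's detection and not a cell type. Of the 8 receptors tested, Havcr2 was higher in the cells with Gzmb and 0 were lower, where 0.568% of the 2640 genes tested were called higher and 0.492% lower. Without adjustment, edgeR counted 2 higher (Havcr2 and Tnfrsf9) and 0 lower, and DESeq2 called 0 lower. Havcr2 stood at 175, 272, 242 and 151 CPM with Gzmb and at 28.3, 106, 83.6 and 17.1 CPM without, so that all sums with Gzmb were above all without. The log2 difference was 1.80 ± 0.31 (edgeR adjusted p = 0.0189, higher in 4 of 4 libraries). The call was lost without RT2 (2.11, edgeR adjusted p = 0.0669), without RT3 (1.68, edgeR adjusted p = 0.167) and without the library block (1.72, edgeR adjusted p = 0.26), and after cells were thinned to 1500 UMIs before the split Havcr2 was too sparse to be tested. Cells with Gzmb were also deeper, with medians of 2056.5, 2031.5, 2867 and 2370.0 UMIs against 1584.5, 1228.5, 2056 and 1135. Tnfrsf9 was higher with Gzmb in 4 of 4 libraries without passing (0.58 ± 0.18, edgeR adjusted p = 0.182), and without doublet-like barcodes RT3 went the other way (666 CPM with Gzmb and 687 without). Pdcd1 (0.06 ± 0.23) and Ctla4 (0.02 ± 0.25) were higher in some libraries and lower in others.

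**Figure D5:**
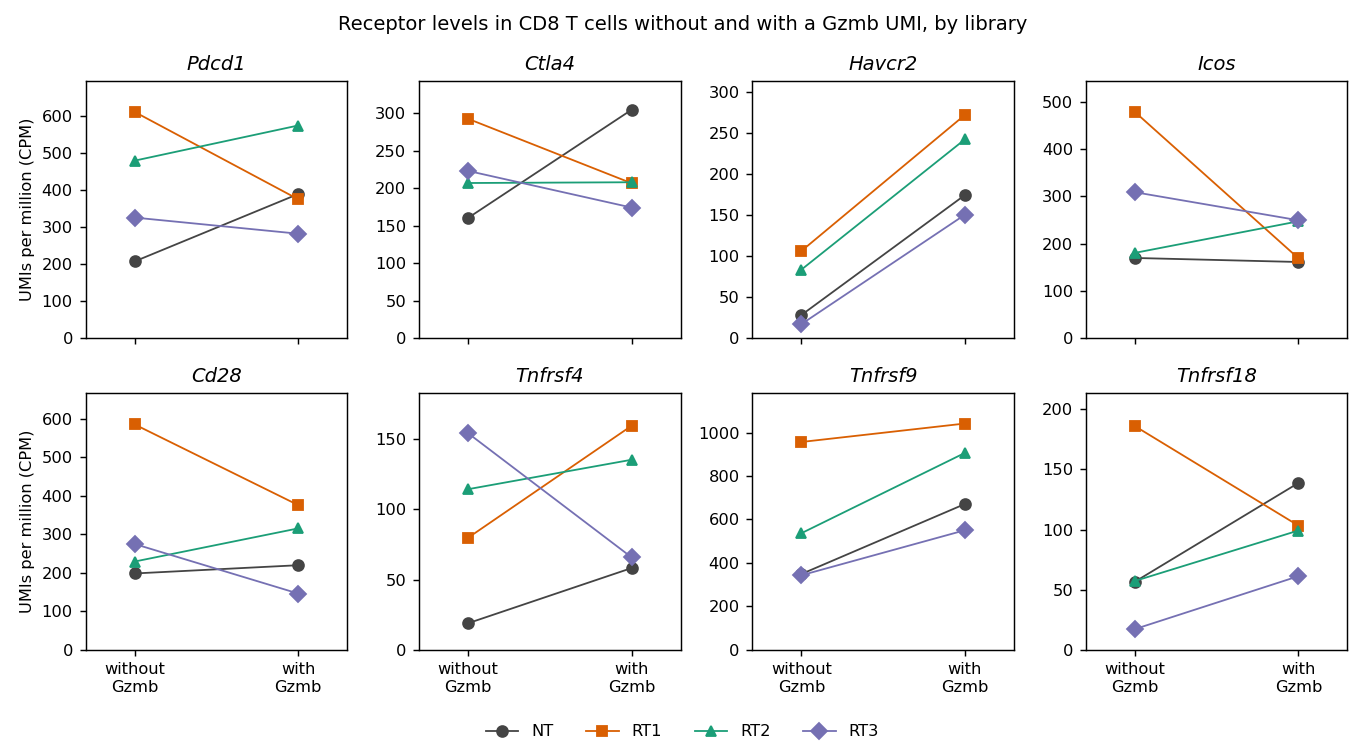
Level of 8 receptors (CPM) in CD8 T cells without and with a Gzmb UMI, lines joining the sums of 1 library. Havcr2 and Tnfrsf9 are higher with Gzmb in all 4 libraries, Havcr2 going from between 17.1 and 106 to between 151 and 272 CPM.

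Other genes of the pathway were read from lists. Of the 16 ligand genes, 7 had at least 40 UMIs in CD8 T cells (3 above NT in all RT libraries, 1 below) and 7 in NK cells (3 above, 2 below), where 22.9% and 29.1% of all genes were above and below NT in CD8 T cells and 29.6% and 31.5% in NK cells. Tnfsf4, the OX40 ligand, was called higher by size in NK cells, at 7.81 CPM from 2 UMIs in NT and 128, 63.3 and 109 CPM after radiation, or 11.4 times the NT level over all RT UMIs (95% counting interval 3.11 to 94.7), where 4.52% of all genes were called higher. Its receptor Tnfrsf4 had 1 UMI in the same cells. Cd274 (PD-L1) was above NT in CD8 T cells (69.8 CPM against 118, 110.1 and 84.9) and below it in NK cells (160.1 against 104, 106 and 116). Lgals3, a galectin that binds Lag3, was called higher in CD8 T cells (85.0 CPM in NT and 208, 358 and 207 in RT), where 2.77% of all genes were called higher and the macrophage list was also higher in all 3 RT libraries. The part of macrophage RNA in it was not tested.

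Among effector genes of CD8 T cells, 5 of 14 with enough UMIs were above NT in all RT libraries, 0 were below and 3 were called higher, where 22.9% of all genes were above, 29.1% below and 2.77% called higher. Gzmf, a granzyme, stood at 282 CPM in NT and at 3378, 3912 and 5918 in RT (mean log2 ratio 3.92 ± 0.42, SD), Gzmd at 75.9 against 1818, 962 and 1894, and Gzmc at 164 against 437, 416 and 875. Of 16 factors of exhaustion and memory, 4 were above and 9 below NT in CD8 T cells, beside the same shares of all genes. Tox, a factor of lasting T cell stimulation, was called lower, at 237 CPM against 76.3, 110.1 and 84.9, where 0.777% of all genes were called lower. Il7r, the receptor for a survival cytokine, was called higher, at 27.3 against 76.3, 60.3 and 66.5. Nr4a1, which the antigen receptor induces, was below NT at 1302 against 486, 699 and 546 CPM. Irf4, also induced by the antigen receptor, was above it at 48.5 against 243, 140.3 and 66.5 CPM.

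Of the Treg activation list, 5 genes had enough UMIs in CD8 T cells, 2 above NT in all RT libraries and 0 below, and both were called higher, where 22.9% of all genes were above, 29.1% below and 2.77% called higher. Il2ra, a chain of the interleukin-2 receptor, stood at 36.4 CPM against 208, 121 and 169.8, and Areg (amphiregulin) had 3 UMIs in NT and 54 in RT, 4.64 times the level (interval 1.51 to 23.2). In Treg, Areg was called higher as well (150.4 CPM against 687, 818 and 557), together with Nfkbia, an inhibitor that NF-kappaB induces (919 against 2673, 2357 and 3264), where 3.74% of genes were called higher, while Top2a, a cycling gene, was called lower (1019 against 153, 331 and 318), where 1.19% of genes were called lower. Left without RT1, 1 Treg activation gene and 1 receptor signaling gene were called higher, where 5.09% of genes were. In that setting 1 cycling gene was called lower, where 1.87% of genes were. Among lists with few genes past 40 UMIs in Treg, 2 of 3 exhaustion and memory factors were above NT, 1 of 3 effector genes was below and 4 of 6 cycling genes were below, where 15.4% of all 589 genes were above NT in every RT library and 30.7% below. Without RT1 these counts were 2 of 3 above, 1 of 3 below (with 1 effector gene, Gzmb, above and called higher) and 4 of 6 below (with 1, Pclaf, above; both genes named after their values were seen), where 28.7% of all genes were above and 38.7% below. In the receptor signaling list 2 of 19 genes were above and 9 below NT in CD8 T cells and 5 and 6 of 19 in NK cells, with 0 called. The shares of all genes above and below NT were 22.9% and 29.1% in CD8 T cells and 29.6% and 31.5% in NK cells, and these also stand beside the counts of other receptors and cycling genes that follow. Among 11 other receptors in CD8 T cells, 1 was above (Entpd1, an ectonucleotidase, 27.3 CPM against 104, 75.4 and 48.0) and 4 below. In NK cells 0 of 8 were above and 6 below, Vsir, an inhibitory receptor, being called lower (102 CPM against 50.2, 39.6 and 40.1), where 1.06% of all genes were called lower. Of 8 cycling genes, 1 was above and 4 below NT in CD8 T cells, and 3 and 1 in NK cells.

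In NK cells, 2 of 14 effector genes were above NT, 2 were below and 0 were called, where 29.6% of all genes were above, 31.5% below, 4.52% called higher and 1.06% called lower. Of 13 exhaustion and memory factors, 1 was above and 6 below, and Nr4a1 (1636 CPM against 790.3, 796 and 606) and Nr4a2 (195 against 94.7, 92.3 and 86.9), factors induced by receptor signaling, were called lower. Of 4 Treg activation genes 1 was above and 1 below.

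Ligands of the receptors were read in all gated populations, by the mean over the 4 libraries. Cd274 stood at 166 CPM in macrophages and monocytes and at 254 CPM in the Retnlg or Csf3r barcodes. Cd86, a ligand of Cd28 and Ctla4, was highest in macrophages and monocytes (105 CPM). Tnfsf9, the ligand of Tnfrsf9, stood at 71.0 CPM in macrophages and monocytes and 77.2 CPM in the Ccr7 and Fscn1 barcodes, and Pvr at 46.3 CPM in tumor cells and 54.2 CPM in the Ccr7 and Fscn1 barcodes. Tnfsf4 stood at 114, 685, 105 and 219 CPM in CD4 T cells without Foxp3, the RT1 value resting on 13 UMIs in 14 cells. Pdcd1lg2 (PD-L2) was highest in NK cells (65.5 CPM).

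The lists were also compared between populations. Of 14 effector genes tested, 11 were lower in Treg than in CD8 T cells and 0 higher, and 6 were higher and 3 lower in NK than in CD8 T cells. Of all 4574 genes tested, 1.66% were higher and 5.86% lower in Treg than in CD8 T cells, and 2.3% were higher and 3.48% lower in NK than in CD8 T cells. Of 7 Treg activation genes, 5 were higher in Treg than in CD8 T cells and 0 lower. These were Areg, Ebi3, Ikzf2, Il2ra and Klrg1, named here after their values were seen. The log2 difference was 3.58 for Areg, 2.39 for Ikzf2 and 2.27 for Il2ra, while Ebi3 rested on 9 UMIs and Klrg1 on 3 in CD8 T cells against 24 and 85 in Treg. Il2ra and Ikzf2 are also markers used to check Treg. Of 12 other receptors, 1 was higher and 2 lower in Treg than in CD8 T cells, and of 18 receptor signaling genes 0 were higher and 1 lower. Without RT1 the counts of Treg against CD8 T cells were the same for effector genes, other receptors and receptor signaling genes, while 6 of 8 Treg activation genes were higher and 1 lower (Nrp1, also named after its value was seen), where 110 of all 4707 genes were higher and 323 lower. The median log2 difference over all tested genes was -0.16 for Treg over CD8 T cells and 0.01 for NK over CD8 T cells.

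Genes with the most similar pattern were sought over the 12 sums of population and library by Pearson's r of log2(CPM + 1), given as a description since the sums share libraries and depth. Pdcd1 was closest to Irf4 (r = 0.94) and Ccr7 (0.88). Ctla4 was closest to Ikzf2 and Lcp2 (0.97 each), Icos to Ppp1cc (0.98) and Lcp2 (0.95), and Cd28 to Rbpj (0.88) and Pdcd1 (0.87). Tnfrsf4 followed Lat (0.97) and Cd3d (0.95), the latter part of the population rules, and Tnfrsf18 followed Sla (0.95) and Mdfic (0.93). Over the 12 sums Havcr2 and Tnfrsf9 had no neighbor above 0.77. The closest were Lfng (0.75) and Cx3cr1 (0.71) for Havcr2 and Copb1 (0.77) and Acod1 (0.72) for Tnfrsf9. Lag3 (36 UMIs) and Tigit (24 UMIs) were too sparse for a pattern, with Stat3 (0.81) and Adcy7 (0.80), and Ppig and Prpf8 (0.85 each), as their nearest. Without the RT1 sum of Treg, over 11 sums, the closest gene was again Irf4 for Pdcd1 (0.93) and Ppp1cc for Icos (0.99). It was another gene for each of the other 8 receptors, such as Icos for Ctla4 (0.97) and Clasp1 for Tnfrsf4 (0.98). Havcr2 was then closest to Slc2a3 (0.79) and Tnfrsf9 to Rsad2 (0.85), so both had a neighbor above 0.77.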

How the data were processed

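The authors captured cells with the SeekOne MM 3′ kit and deposited UMI counts per gene and barcode, whole numbers without normalization, 1 table per library. The submitters' processing notes name STAR 2.5.1b, featureCounts of Subread 1.6.4, Cell Ranger and the build GRCm39. RT2 lists fewer genes, by symbol only, and no barcode above 12.0% mitochondrial UMIs. Tables were joined on symbols. A barcode was kept if it had 200 or more genes and no more than 20% of UMIs from mitochondrial genes, and doublets were not removed in the main values. Doublet-like barcodes had at least 2 UMIs of Rhox5 or of the macrophage genes C1qa, C1qb, C1qc, Csf1r and Adgre1 together.

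Counts were summed per population and library. Poisson and Clopper-Pearson intervals are at 95%. The size rule required 40 UMIs over the 4 libraries. Ratios against 0 UMIs used a floor of 3. Population and Gzmb contrasts used edgeR 4.0.16 (R 4.3.3; filterByExpr with a minimum count of 10, TMM, glmQLFTest, Benjamini-Hochberg over all genes, threshold 0.05), with library as a block because the populations of 1 library come from the same tumor or pool. The scripts were tested on simulated data in which 200 genes were changed 4-fold. These counts were drawn from mean levels pooled over all sums, with the real UMI totals and the same fixed spread for every gene. They held no other difference between libraries, unlike the real data. Treg over CD8 T cells recovered 67% of them (134) with 16 false calls, and NK over CD8 T cells 98% (196) with 3. The Gzmb contrast recovered 94.5% (189) with 12 false calls. In the Treg and Gzmb contrasts the false calls were a larger share of the calls than the threshold of 0.05. DESeq2 1.42.0, other filters, gates and weights, and leaving out each library were tried as alternatives. All receptors were named, with list members called by size or, up to 4 per list, those with the largest mean ratio among genes on 1 side of NT. Ccr8 of the Treg activation list was not analysed here. Members and lists were chosen with earlier results of these data known.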

Additional observations from a re-analysis of the deposited data

Results flagged for a closer look

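Icos was above NT in every RT library in CD8 T cells and below NT in every RT library in NK cells. Of all genes with enough UMIs, 22.9% were above NT in CD8 T cells and 31.5% were below NT in NK cells. The share that did both is not given. The mean log2 ratio of RT over NT for Icos was 0.59 in CD8 T cells (NT 54 UMIs) and -0.79 in NK cells (NT 26 UMIs). The counting intervals of the ratios held 0 in RT1 in CD8 T cells (-0.04 to 1.24) and in RT1 (-1.36 to 0.20) and RT3 (-1.59 to 0.08) in NK cells. The difference between the populations was not tested, because NT is 1 library.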

How the results depend on the processing

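Depth and cell number limit these values, above all in Treg, and NT is 1 library. The shares of all genes above or below NT given before hold for the main values, and in Treg also without RT1. None are given for the other settings below, so those counts of receptors are not read against a share. In CD8 T cells the receptors above NT in every RT library numbered 2 in the main values, 6 without Cd3 in the gate, 5 as a mean over cells and 2 to 6 with 1 RT library left out. Those below numbered 1, 0 as a mean over cells and 1 to 2 with 1 RT library left out. In NK cells 4 were below, 2 as a mean over cells and 4 to 5 with 1 RT library left out. In Treg 1 was above, 0 without Cd3 in the gate or with 2 UMIs of the gating genes, 2 centered on the median gene, with no cell filter or without doublet-like barcodes, and 1 to 4 with 1 RT library left out, and 0 were below, 3 without Cd3 in the gate and 1 as a mean over cells. All genes called by size ranged from 103 to 280 higher and 31 to 144 lower in CD8 T cells (main 146 and 41), 216 to 560 and 60 to 168 in NK cells (289 and 68), and 12 to 55 and 3 to 32 in Treg (22 and 7). Of the receptors' mean log2 ratios, 1 of 72 recomputed values turned sign in CD8 T cells, 5 of 54 in NK cells and 7 of 36 in Treg. Shares of cells were less stable: of the differences between RT and NT under other depths or without doublet-like barcodes, 2 of 30 turned sign in CD8 T cells and 9 of 30 in NK cells, where 13 of 30 moved by more than the spread of the RT libraries.

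Without Cd3 in the gate, NK cells were higher than CD8 T cells for 1 receptor (Tnfrsf9) and lower for 3 instead of 6, and with 1 library left out lower for 6 to 7. Treg were lower than CD8 T cells for 1 receptor (Pdcd1) with no filter on low counts and without doublet-like barcodes, and for 0 to 1 with 1 library left out, which left 2 to 3 higher, and 4 to 5 higher than NK cells. The Gzmb contrast called 2 receptors with no filter on low counts (Havcr2, and Tnfrsf9 with a log2 difference of 0.79 and an edgeR adjusted p of 0.0347), 0 with cells thinned to 1500 UMIs, and 0 to 1 with 1 library left out. With no replicate block, that is without pairing the sums of 1 library, it called 0 receptors, while the population contrasts kept their counts of 6, 3 and 5.

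All genes called by edgeR moved by more than 1.5 times in these cases. For NK over CD8 T cells, 105 higher became 258 without Cd3 in the gate, 237 with no filter, 67 with no replicate block and 169 without doublet-like barcodes. For Treg over CD8 T cells, 76 higher became 44 with 2 UMIs of the gating genes and 36 without Cd3, and 268 lower became 85 without Cd3 and 424 with no filter. For Treg over NK cells, 160 higher became 88 without Cd3 and 382 lower became 651 with no filter. In the Gzmb contrast, 15 higher and 13 lower became 6 and 8 thinned, 51 and 41 with no filter, 3 and 0 with no replicate block, and 8 higher without doublet-like barcodes. With 1 library left out, NK over CD8 T cells ran from 62 to 130 higher and from 92 (without RT2) to 160 lower (main 159), and the other counts in the same order from 29 to 110, 139 to 323, 72 to 195, 226 to 441, 3 to 12 and 0 to 18.

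Signs turned among differences that did not pass the test. Tnfrsf9 of Treg over CD8 T cells became 0.023 with DESeq2 and 0.18 without Cd3 in the gate, and ran from -0.19 to 0.17 with 1 library left out. With 1 library left out, Tnfrsf9 of NK over CD8 T cells ran from -0.22 to 0.40 and of Treg over NK cells from -0.45 to 0.099, and Cd28 of Treg over NK cells from -0.011 to 1.00. Havcr2 of Treg over NK cells became -0.066 with DESeq2, -0.21 with no filter, -1.10 without Cd3, -0.36 with 2 UMIs of the gating genes and -0.39 without doublet-like barcodes, and ran from -0.86 to 0.65 with 1 library left out. In the Gzmb contrast Pdcd1 became -0.0065 with no replicate block and -0.14 without doublet-like barcodes (-0.16 to 0.27 with 1 library left out), Ctla4 became -0.013 with DESeq2 and -0.45 without doublet-like barcodes (-0.24 to 0.15), Icos became 0.073 thinned (-0.66 to 0.030), Cd28 became 0.0092 with no filter (-0.52 to 0.011), and Tnfrsf4 became -0.27 without doublet-like barcodes (-0.039 to 0.55). The cause was not tested.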
